A study of Homo sapiens with 24 samples.

Results

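The cytosolic ribosomal protein genes were followed over the migration of a lung cancer cell line. They were taken as every probe of the bead table whose annotated symbol is RPL or RPS followed by a digit, or RPLP0, RPLP1, RPLP2 or RPSA, without symbols of pseudogenes and without the RPS6K kinases. The rule gave 128 of 47286 probes and 78 of 20031 named genes. Of these, 120 probes and 74 genes were measured, where a probe counted as measured if its detection p-value was below 0.01 on 2 or more arrays. The 4 genes without a measured probe were RPL10, RPL3L, RPL10L and RPL22L1, so RPL22, a large subunit protein, could not be set against its paralog RPL22L1. Ribosomal protein genes with no annotated probe were not analysed here. The probe used for each of the 74 genes, the brightest one kept, was detected on all 24 arrays.

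H838 is an established line from a human non-small cell lung tumour, and it was grown to a confluent layer in wells that shared medium through a porous filter with a second culture. The second culture was either HPAEC, which are primary endothelial cells of the human pulmonary artery, or H838 itself as the control, and all wells held the endothelial growth medium. The H838 layer was scratched to start migration and lysed at 9 times from 0.5 to 24 h, while the 0 h wells are labelled unscratched. Each time had 1 array beside HPAEC and 1 beside H838, and 0 and 24 h had 2 of each. The title and the co-culture label of both second HPAEC arrays name HPAEC, while another label of these arrays names H838 as the second line, and the title was followed. Whether the duplicates are separate cultures is not said in the labels, so all p-values reflect only how much these arrays vary, which may be technical.

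Each cytosolic ribosome is built from a large and a small subunit, and each protein of it is made from its own gene in step with the others. Their mRNAs are among the most abundant of a growing cell and mostly begin with a C followed by a run of pyrimidines, the terminal oligopyrimidine (TOP) tract. Through that tract the mTOR pathway and the RNA-binding protein LARP1 control how strongly the mRNAs are translated, which is a step that mRNA levels do not show.

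The tract could be read from RefSeq promoters (GRCh38.p14) for 63 of the measured genes. A C at the annotated start with at least 4 more pyrimidines directly after it was found for 41 of 63 ribosomal protein genes (65.1%), against 4.04% of all 27305 promoters in the table and 5.53% of those of all genes tested. It was present for 22 of 33 large subunit, 16 of 22 small subunit and 2 of 2 stalk genes, but for 1 of 6 paralogs. Shown here are members whose levels are described further on, with the paralogs beside their parent genes. Each line holds 30 bases, 15 before and 15 from the start base on, and the capitals mark the unbroken run of C and T that covers the start base.
RPS19, chr19:41860240-41860269 (+): ggaaaccccgtcgTTCCCTTTCCCCTggct
RPS21, chr20:62387088-62387117 (+): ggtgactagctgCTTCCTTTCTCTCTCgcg
RPL29, chr3:51995881-51995910 (-): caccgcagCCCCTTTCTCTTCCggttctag
RPL36A, chrX:101390996-101391025 (+): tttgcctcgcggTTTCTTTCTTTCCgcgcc
RPL36AL, chr14:49620612-49620641 (-): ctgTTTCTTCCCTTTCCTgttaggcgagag
RPL26, chr17:8383179-8383208 (-): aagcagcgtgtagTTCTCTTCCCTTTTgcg
RPL26L1, chr5:172958714-172958743 (+): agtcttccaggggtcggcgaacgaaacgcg
RPS27, chr1:153990747-153990776 (+): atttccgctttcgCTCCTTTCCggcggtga
RPS27L, chr15:63157463-63157492 (-): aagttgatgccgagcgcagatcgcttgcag
RPS7, chr2:3575245-3575274 (+): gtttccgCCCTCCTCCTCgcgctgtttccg
RPS26, chr12:56041903-56041932 (+): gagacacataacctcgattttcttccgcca
RPS27 and RPL26 carry the run from the start base on, and their paralogs RPS27L and RPL26L1 start with G and have none. RPL36A has a run of 13 pyrimidines over its start, 10 of them from the start on. RPL36AL and RPS7 have long runs that lie mostly upstream and end 3 bases into the transcript, and the annotated start of RPS26 is a G. These windows depend on the start that RefSeq annotates, the most upstream one where a gene has several, and a start elsewhere would give another reading.

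**Figure D1:**
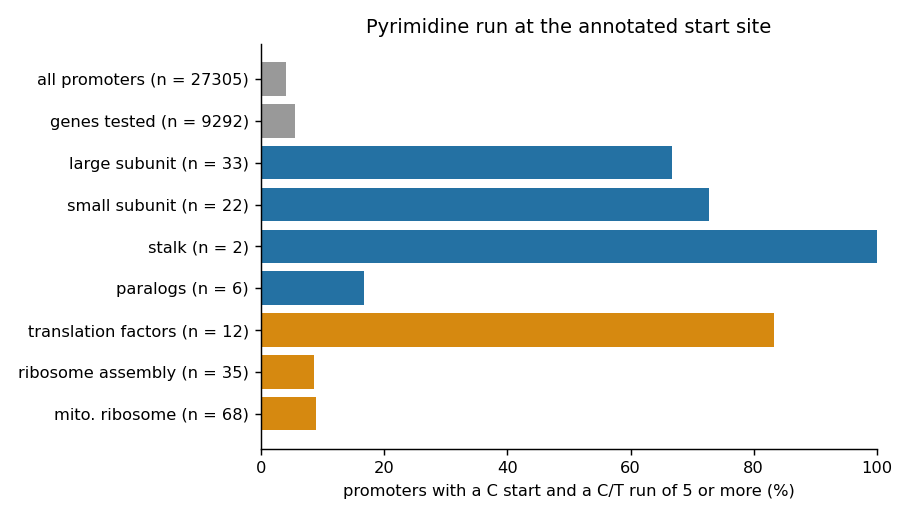
The bars give the percentage of RefSeq promoters with a C at the start followed by at least 4 more pyrimidines, for all promoters, for the genes tested (both grey), for the ribosomal protein groups (blue) and for 3 lists outside them (orange), with the number of promoters read. The 2 subunits stand well above the background of 4.04%, while the paralogs reach 16.7% from 6 promoters. The translation factors are high too, but that list was made of mRNAs of the TOP class.

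Among lists of genes outside the ribosomal proteins, the run was found in 10 of 12 translation factors and other mRNAs of the TOP class. That list is named for this tract, so its high share was given in advance. The run was rare in ribosome assembly genes (3 of 35) and mitochondrial ribosomal protein genes (6 of 68). In the 250 bases before the start, the letters CCGGAAG, a motif of the ETS type, were looked for on either strand. They occurred in 30.2% of the ribosomal protein promoters and in 8.78% of all promoters or 15.9% of those of genes tested. The same letters were in 32.4% of the mitochondrial ribosomal protein promoters and in 42.9% of those of assembly genes. The E-box CACGTG was in 6.35% of the ribosomal protein promoters against 6.46% of all and 8.84% of those of genes tested, and TATAAA in 6.35% against 11.2% and 5.63%. These are matches of letters and are given as a description.

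The ribosomal protein genes were the brightest group on the arrays. They made up 24 of the 50 genes with the highest mean level, 43 of the top 100 and 52 of the top 200. All levels and spreads in the text are log2 normalised intensities unless raw intensity is named, and levels of different genes come from different probes, so their order is one of signal and not of mRNA copies. The median member level on an array lay between 14.17 and 14.34. On the raw scale the members took 6.00% to 6.84% of the intensity summed over the measured probes of an array. Their median was 40.1 to 50.8 times the median gene. The brightest were RPS12 (mean raw intensity 29276), RPL41 (28085) and RPS29 (27476), 2 small subunit proteins and the shortest protein of the large subunit. The highest raw value of any probe on an array was 30686 to 37299, and whether the bright members still responded in proportion to their mRNA was not tested. The dimmest were RPL37 (269), RPL28 (463) and RPL36A (681).

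The SD over arrays had a median of 0.09 for members and of 0.20 for all 11494 genes. The smallest spreads were those of RPS19 (SD 0.057), a small subunit protein known for its mutations in Diamond-Blackfan anaemia, RPL6 (0.059), RPS15A (0.059) and RPS27 (0.062). RPS19 lay between 14.45 and 14.63 on every array, before the scratch and after it, beside either culture. The largest spreads printed here were those of RPL36A (0.28), RPL37 (0.27), RPL14 (0.25) and RPL28 (0.23). Among genes with a mean above 14, however, the 43 members (median SD 0.083) and the 54 other genes (0.090) had similar median spreads. Below that level the median SD of members against others was 0.131 against 0.117 (mean of 12 to 14), 0.130 against 0.143 (10 to 12) and 0.252 against 0.223 (under 10), so members did not vary less at every brightness.

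**Figure D2:**
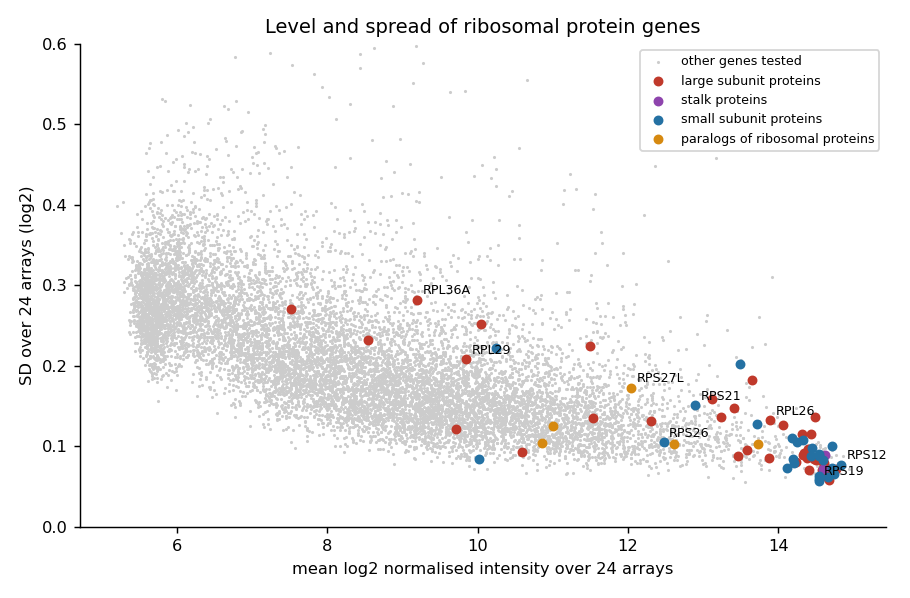
Each point is 1 gene, with its mean log2 normalised intensity over 24 arrays on the horizontal axis and its SD over these arrays on the vertical axis; 38 other genes with an SD above 0.6 lie beyond the axis and 2 Y-linked members are not drawn. Most ribosomal protein genes sit at the bright right end with SDs near 0.1, and RPL36A and RPL29 lie among the dimmer genes.

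The first comparison asked whether the endothelial culture changed the ribosomal protein genes of H838. No member passed the threshold (adjusted p of 0.05, limma over all 11494 genes), where 2.02% of all genes did, 1.13% higher and 0.887% lower. The median difference, beside HPAEC minus beside H838, was -0.0020 over the 74 members and 0.0033 over all genes, and 36 members were positive and 38 negative. Without adjustment 7 members had a p below 0.05, of which 2 were higher and 5 lower beside HPAEC. The 95% interval of the difference lay within 1.25-fold either way for 69 of 74 members (93.2%) and for 60.9% of all genes. It did so for all 43 members with a mean above 14, and the share among other genes that bright is not given here. The median SE was 0.060 for members and 0.082 for all genes, so the 2 shares also differ in precision. RPL5, RPL11 and RPL23, which bind MDM2 when ribosome assembly is disturbed, differed by -0.08 ± 0.06, -0.00046 ± 0.07 and -0.09 ± 0.06 (log2, SE).
The smallest adjusted p-values were those of 2 large subunit genes with opposite directions, RPL22 (-0.18 ± 0.06, adjusted p = 0.105) and RPL8 (0.23 ± 0.07, adjusted p = 0.107), the latter chosen after its values were seen. RPL22 ranged from 12.10 to 12.50 (median 12.22) beside HPAEC and from 12.14 to 12.59 (median 12.38) beside H838, and the 2 groups overlapped.

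Chip and co-culture nearly coincided in this design. Of the 12 HPAEC arrays 10 lay on one BeadChip, beside 2 H838 arrays (the first of 0 h, and 0.5 h), and the other chip held the rest. In 4 pairs of arrays that share a time and a chip, the median member difference, beside HPAEC minus beside H838, was -0.021, 0.0020, -0.011 and 0.024. The first H838 array of 24 h lies on the same chip as the last pair and was not paired here. With chip left out of the model 9 members passed, 3 higher and 6 lower, beside 1723 of all genes, and with chip as a random block 11 passed, 4 higher and 7 lower, beside 1949 of all genes. In those fits chip and co-culture cannot be told apart. The chip term itself was past the threshold for no member, with 6 members below an unadjusted p of 0.05 (limma), and for 0.0174% of all genes.

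The labelled cell type was checked against markers. The probes of VWF, CDH5 and KDR, which define endothelial cells, were detected on no array, and 10 of 17 probes of the 13 endothelial genes listed were likewise never detected. The summed intensity of this list, on a linear scale that is not the raw one, was 311 to 457 beside HPAEC and 305 to 469 beside H838. Of the same list MMRN1 was detected on 24 arrays and EGFL7 on 21. Of the epithelial list EPCAM was detected on 24 arrays, KRT18 on 21, CDH1 on 4, KRT8 on 2, KRT19 on 1 and KRT7 on 0. Of the fibroblast and smooth muscle list COL1A1, COL3A1, LUM and ACTA2 were detected on 24, PDGFRB on 22 and DCN on 1 at most. In lysates, a change in the mRNA of every cell and a change in the mix of cells cannot be told apart.

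The second comparison followed time after the scratch. Across the 9 times the moderated F test called 4 of 74 members, RPL36A, RPS27L, RPS7 and RPL28, where 22.8% of all genes were called. Times were then grouped and set against 0 h. The early window held 0.5, 1 and 2 h, the middle window ran from 3 to 5 h, and the late window held the times from 10 h on. In the early window no member passed, where 0.461% of all genes did (0.400% higher and 0.0609% lower), with 5 members below an unadjusted p of 0.05 (limma). In the middle window 2 of 74 members were higher and 0 lower, where 15.3% of all genes were called, 7.99% higher and 7.28% lower. In the late window 1 member was higher and 4 were lower, where 15.5% of all genes were called, 7.93% higher and 7.57% lower. The median change of the members was 0.01, 0.00054 and 0.01 in the 3 windows, beside -0.01, -0.01 and 0.0049 over all genes. With arrays scaled to a common median in place of quantile normalisation the members' medians in the middle and late window were -0.03 and -0.02, so no direction is given for the group. With each chip fitted alone no member passed in the middle or late window, and of all genes 4 passed in the late window on the first chip and 0 on the second. Those fits averaged the arrays of a window, while the main model averaged its times, so their changes can differ in size. On the first chip all middle and late arrays were beside HPAEC. On the second chip all were beside H838 except the second HPAEC array of 24 h. A change within a chip is thus nearly that of 1 culture.

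No core protein of either subunit was called in the middle window, in 40 large subunit, 25 small subunit and 2 stalk genes. In the late window the calls were RPL26, RPL36A and RPL29 of the large and RPS21 and RPS26 of the small subunit, while both stalk genes and all 7 measured paralogs did not pass. The 95% interval lay within 1.25-fold for 66 of 74 members in the middle and in the late window alike (89.2%), where it did so for 44.2% and 45.6% of all genes. Of the 43 members with a mean above 14 it did so for 43 and 42. The median SE was lower for members than for all genes, 0.066 against 0.091 and 0.064 against 0.088. The members' share of the raw intensity summed over the measured probes of an array was 6.26% to 6.44% at 0 h. It was 6.09% to 6.55% in the middle and 6.00% to 6.84% in the late window, and the windows overlapped.

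**Figure D3:**
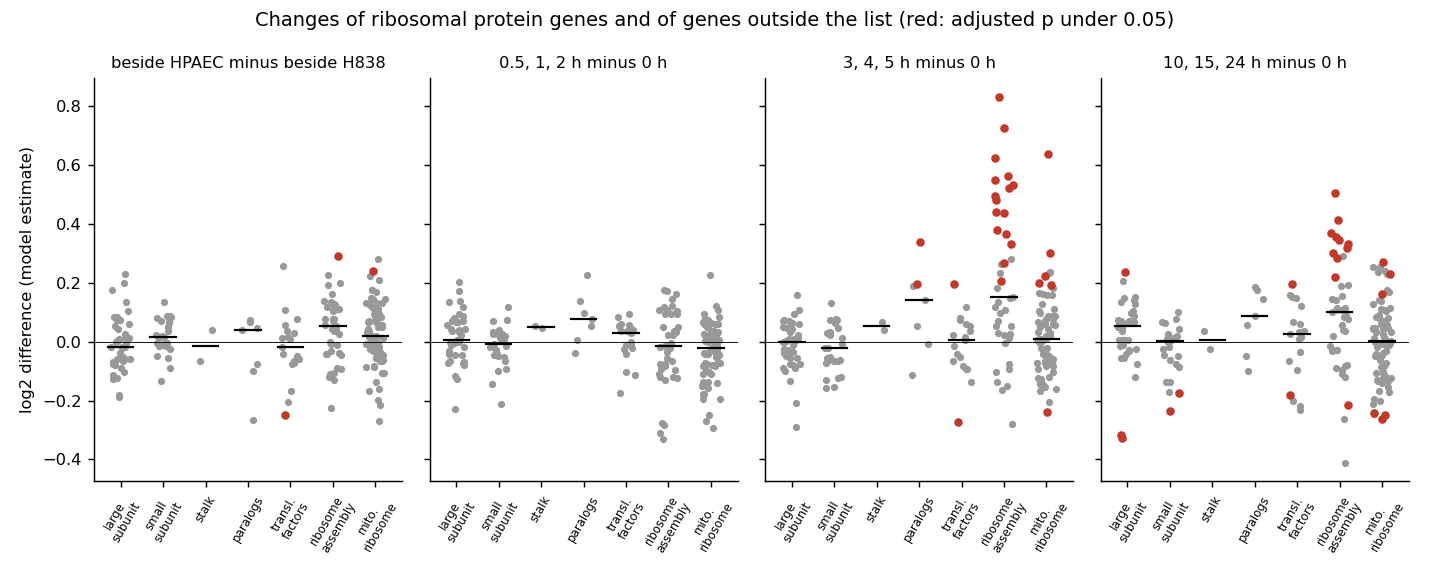
Each point is the log2 difference of 1 gene by the linear model, in panels for the co-culture effect and for the 3 windows against 0 h; black lines are medians and red points have an adjusted p under 0.05. The subunit genes stay close to 0 in each panel, and 16 ribosome assembly genes are red and above 0 at 3 to 5 h.

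Both genes called in the middle window were paralogs. RPS27L is the paralog of RPS27, and p53 is known to induce it. Its level at 0 h was 11.88 and 11.85 beside HPAEC and 11.82 and 11.86 beside H838. At 3, 4 and 5 h it was 12.16, 12.18 and 12.34 beside HPAEC and 12.02, 12.12 and 12.34 beside H838, and all 6 arrays lay above the 4 of 0 h. The middle change was 0.34 ± 0.07 (log2, SE), or 1.27-fold, with an adjusted p of 0.00435. Taken apart by culture the change was 0.37 ± 0.15 beside HPAEC and 0.30 ± 0.15 beside H838, neither past the threshold by itself (adjusted p = 0.192 and 0.418), and the difference of these was 0.07 ± 0.22. Outside this window it was 12.19 beside HPAEC and 11.81 beside H838 at 0.5 h, and 12.06 and 12.30 at 10 h. The early change was 0.23 ± 0.07 and the late change 0.19 ± 0.07, and neither passed. At 24 h the 4 arrays were back at 11.80 to 11.90, where 0 h had 11.82 to 11.88. Within the 2 chips the middle change was 0.27 and 0.23, from middle arrays beside HPAEC on the first and beside H838 on the second.
Its parent gene RPS27, a zinc finger protein of the small subunit, changed by 0.07 ± 0.06 in the middle window (adjusted p = 0.485). RPS27 stayed between 14.56 and 14.75 over all arrays.

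RPL26L1, the paralog of RPL26, was 10.83 to 10.96 (median 10.89) at 0 h and 11.01 to 11.18 (median 11.10) at 3 to 5 h. The 2 groups did not overlap, and the change was 0.20 ± 0.06, or 1.15-fold (adjusted p = 0.0436). The call lay close to the threshold and was lost when any of 12 of the 24 arrays was left out, among them 3 of the 4 of 0 h, and the change within the 2 chips was 0.21 and 0.20. A second probe of RPL26L1 gave 0.14 ± 0.08 (adjusted p = 0.320 over probes). Over probes the brighter one did not pass either (adjusted p = 0.0688 in limma).
RPL26, a large subunit protein that also binds the p53 mRNA, was called in the late window instead, at 0.24 ± 0.07 or 1.18-fold (adjusted p = 0.0371). With each probe tested on its own RPL26 did not pass (adjusted p = 0.0547 in limma). Its 0 h values were 13.57 and 13.76 beside HPAEC and 13.84 and 13.89 beside H838, and its late values ran from 13.81 to 14.25 (median 13.98), so the groups overlapped. Beside HPAEC the late change was 0.40 ± 0.10 and beside H838 0.05 ± 0.11. The difference between these was 0.36 ± 0.15 (adjusted p = 0.900), which did not pass. Within the 2 chips the late change was 0.39 and 0.13, the first from late arrays beside HPAEC only. Without the lower 0 h array beside HPAEC the change was 0.17 and no longer past the threshold, and without 1 of 6 other arrays it was lost too.

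Neither RPL36AL nor RPL39 or RPL39L passed in the middle or late window. RPL36AL, whose protein differs little from that of RPL36A, changed by 0.06 ± 0.06 in the late window, RPL39 by 0.06 ± 0.06, and its paralog RPL39L, known from testis, by -0.10 ± 0.07. RPS6, the small subunit protein that S6 kinase phosphorylates, changed by -0.09 ± 0.06 in the late window, with a lowest value of 14.51 and a highest of 14.97 over all arrays.

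**Figure D4:**
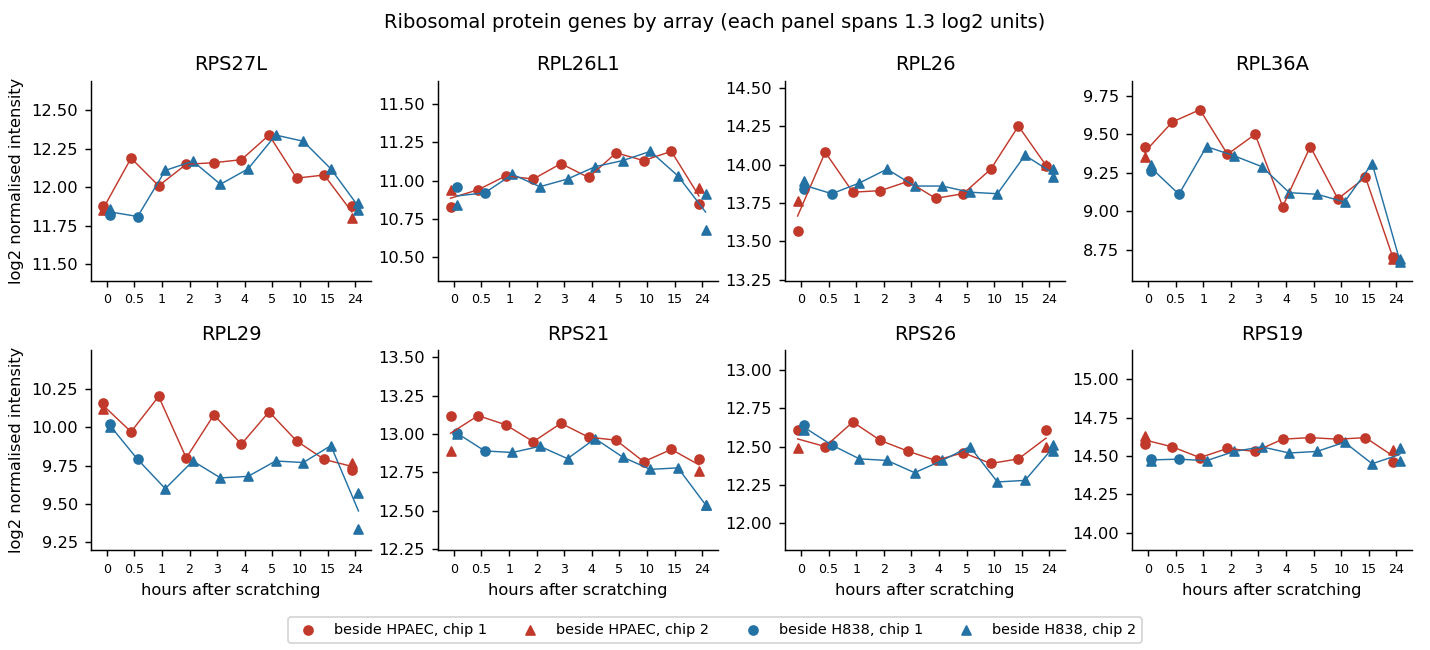
Each panel shows 1 gene, with the time after scratching on the horizontal axis (evenly spaced, in hours) and the log2 normalised intensity of every array on the vertical axis; colour gives the culture beside H838, shape the chip, and lines join the means of each time. RPS27L peaks at 5 h beside both cultures, the 4 arrays of RPL36A at 24 h lie together at 8.67 to 8.70, and RPS19 stays level.

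RPL36A fell furthest of the members in the late window. It codes for a zinc-binding protein of the large subunit that lies near the exit site of the ribosome. Its values at 0 h were 9.42 and 9.35 beside HPAEC and 9.26 and 9.30 beside H838. At 24 h they were 8.70 and 8.69 beside HPAEC and 8.67 and 8.69 beside H838. The arrays of 24 h lay below every one of the other 20, the lowest of which was 9.03. At 10 h the values were 9.08 and 9.06 and at 15 h 9.22 and 9.31, so the low level was that of 24 h. The late change was -0.33 ± 0.08, or 1.25-fold lower (adjusted p = 0.00852). It was past the threshold whichever array was left out. Within the 2 chips the change was -0.50 and -0.48. On the first chip the late arrays were those of 10, 15 and 24 h beside HPAEC, with none beside H838. On the second chip most late arrays were of 24 h, and that fit averaged arrays and not times.

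RPL29, a heparin-binding protein of the large subunit, was 10.16 and 10.12 beside HPAEC and 10.02 and 10.00 beside H838 at 0 h. At 24 h it was 9.72 and 9.77 beside HPAEC and 9.57 and 9.34 beside H838, and its late values of 9.34 to 9.91 (median 9.77) all lay below 0 h. The late change was -0.32 ± 0.08 or 1.25-fold lower (adjusted p = 0.0171). RPL29 was also lower before the late window, by -0.23 in the early and -0.21 in the middle window, and neither passed. From 0.5 to 5 h it was 9.60 to 9.79 beside H838, below 0 h, and 9.80 to 10.20 beside HPAEC, overlapping with 0 h. A second probe of RPL29 of like brightness gave -0.18 ± 0.08, which did not pass (adjusted p = 0.151 over probes).
RPS21, a small subunit protein, ran from 12.89 to 13.12 (median 13.01) at 0 h and from 12.54 to 12.90 (median 12.77) in the late window, where only the highest late value reached into the 0 h range. The change was -0.23 ± 0.06 or 1.18-fold lower (adjusted p = 0.0185).
RPS26, a small subunit protein near the mRNA exit channel, was 12.61 and 12.49 beside HPAEC and 12.64 and 12.61 beside H838 at 0 h. At 10 and 15 h it was 12.39 and 12.42 beside HPAEC and 12.27 and 12.28 beside H838, all below 0 h, and at 24 h it was 12.47 to 12.61 and overlapped with 0 h. The late change was -0.17 ± 0.05 or 1.13-fold lower (adjusted p = 0.0337). The early change of RPS26 was -0.10 and its middle change -0.16, and neither passed. A second, dimmer probe of RPS26 gave -0.12 ± 0.08 (adjusted p = 0.333 over probes). Over probes the brighter one did not pass either (adjusted p = 0.0552). The calls of RPL29 and RPS21 were each lost without 1 of 4 arrays and that of RPS26 without 1 of 8, and the changes stayed below 0 in each case. Averaged over arrays within the first and the second chip, the changes were -0.37 and -0.36 for RPL29, -0.28 and -0.27 for RPS21, and -0.16 and -0.13 for RPS26.

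The duplicated times allowed a direct test of 24 h against 0 h on 8 arrays. Of the members 4 were lower and 0 higher, where 9.49% of all genes were called, 4.85% higher and 4.64% lower. These were RPL36A (-0.64 ± 0.06, 1.56-fold lower, adjusted p = 0.00753), RPL29 (-0.48 ± 0.08, 1.39-fold lower, adjusted p = 0.0205), RPS7 (-0.37 ± 0.08, 1.30-fold lower, adjusted p = 0.0357) and RPS21 (-0.31 ± 0.07, 1.24-fold lower, adjusted p = 0.0415). RPS7 is a small subunit protein that also binds MDM2. It was 10.22, 10.29, 10.44 and 10.23 at 0 h and 10.08, 9.97, 9.84 and 9.71 at 24 h, and the 2 groups did not overlap. Over the 74 members the median was 0.02, beside 0.0025 for all genes, and the 43 members with a mean above 14 held no call. In the middle and late windows, too, none of these 43 was called, and neither was any of the 54 other genes that bright. Among genes with a mean of 12 to 14, 3 of 17 members and 15.7% of the others were called in the late window. This test shares its arrays with the late window and is no second experiment. It had 3 residual degrees of freedom, and with any 1 array left out RPS7, RPL29 and RPS21 no longer passed and 0 or 1 members were called, RPL36A being lost without 3 of the 8.
RPL28, a large subunit protein, was called by the F test over times alone. It was 8.50 to 8.79 (median 8.59) at 0 h, 8.17 to 8.41 (median 8.40) at 3 to 5 h, and 8.69, 9.14, 8.89 and 8.89 at 24 h, so that its lowest values were those of the middle window and its highest one of 24 h.

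Whether the changes over time differed between the 2 co-cultures was tested with 1 mean per co-culture and window. None of the 3 contrasts passed for any member or any other gene (0 of 11494 in limma), and without adjustment 2, 3 and 2 members had a p below 0.05 in the early, middle and late window. In the early window RPL27, a large subunit protein, differed by 0.33 ± 0.13 and RPS28, a small subunit protein, by -0.43 ± 0.17, beside HPAEC minus beside H838. RPS28 was 13.57 and 13.51 at 0 h and then 13.14 to 13.39 up to 2 h beside HPAEC, and 13.36 and 13.47 and then 13.51 to 13.83 beside H838. In the middle window RPL27 (0.33 ± 0.14) and RPL17 (0.31 ± 0.15), and in the late window RPL26, RPS13 (0.30 ± 0.14) and RPL27 (0.24 ± 0.13) had the smallest p-values among the members named, with adjusted p from 0.900 to 0.999. In simulated data of this size the late contrast recovered 4% of genes set to differ by 0.3 and 32% of those set to differ by 0.6 (log2). These genes were drawn from all genes tested, whose median SE in this contrast was 0.21, beside 0.14 for the members. Recovery among members alone was not simulated, and differences of the size seen here may have gone undetected.

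Several members are covered by more than 1 probe, and these did not always move together. In all, 34 genes had 2 or more measured probes, and the brightest and the dimmest probe had late changes of the same sign in 21 of them and of opposite sign in 13. With each of 20054 probes tested on its own, no member probe passed for the co-culture (0.683% of all probes, 0.389% higher and 0.294% lower) or the early window (0.284%, with 0.254% higher and 0.0299% lower). In the middle window 1 was higher and 2 were lower, where 9.92% of all probes were called (5.40% higher and 4.52% lower). Then 8 member probes were lower and 1 higher in the late window, where 10.8% of all probes were called, 5.52% lower and 5.27% higher. All 9 had a mean raw intensity below 10000, and 8 of them one below 2000, while none of the 71 member probes above 10000 was called. Among other probes above 10000, 3.48% were called.

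The genes of these probes were chosen after their values were seen. RPS15, a small subunit protein, had 3 probes, and its dim one (mean raw intensity 979) fell by 0.67 ± 0.08 on the log2 scale. That probe was 10.36, 10.31, 9.89 and 10.03 at 0 h and 9.29, 9.19, 9.06 and 9.08 at 24 h, with no overlap. The 2 bright probes of RPS15 (22465 and 20090) changed by -0.05 ± 0.06 and -0.08 ± 0.06 and did not pass. In the same way a dim probe of RPL36 changed by -0.45 ± 0.09, one of RPL13 by -0.47 ± 0.13 and one of RPL8 by -0.45 ± 0.10, all past the threshold, while the brightest probes of these large subunit genes changed by -0.12 ± 0.06, 0.06 ± 0.08 and 0.0067 ± 0.08 and did not pass. The opposite direction was seen for a dim probe of RPL34 (0.50 ± 0.12), whose brighter probe changed by -0.02 ± 0.08. RPS7 was lower by its second probe (-0.27 ± 0.08), and its first probe gave -0.17 ± 0.08, which did not pass. Probes of 1 gene can read different transcripts, and many ribosomal protein genes have processed pseudogenes of like sequence; which transcripts each probe read was not tested.

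**Figure D5:**
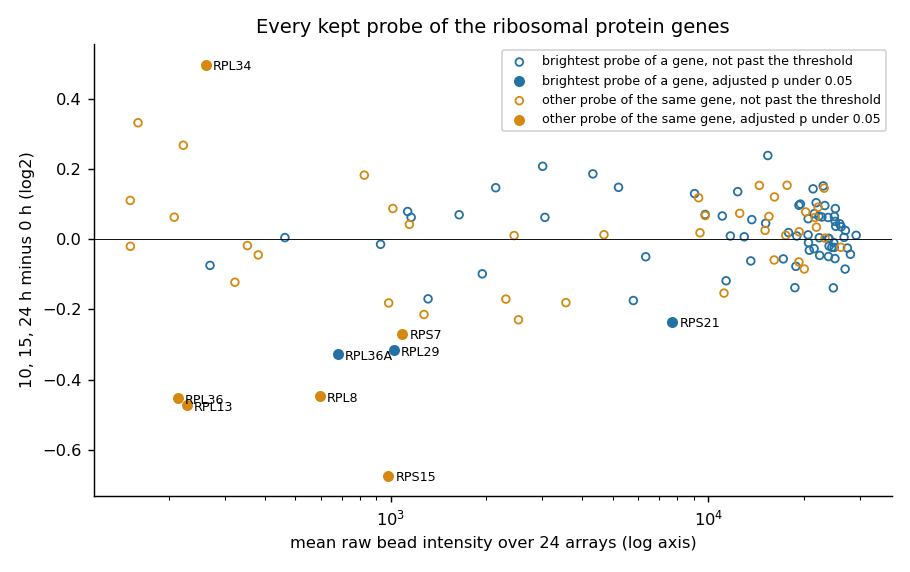
Each circle is 1 measured probe, with its mean raw bead intensity on the horizontal log axis and its late change on the vertical axis; blue marks the brightest probe of a gene, orange its other probes, and filled circles have an adjusted p under 0.05 over all probes (2 Y-linked members not drawn). The filled circles lie at the dim end and most of them below 0, and the bright probes at the right lie within about 0.2 of 0.

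Genes that make or regulate ribosomes were read beside the members, with 15.3% and 15.5% of all genes called in the middle and late window. Of 41 measured genes for ribosome assembly and rRNA synthesis, 16 rose and 0 fell in the middle window (39.0%), with a median of 0.15. RRS1, an assembly factor of the large subunit, changed by 0.83 ± 0.08, NIP7 by 0.73 ± 0.08 and POLR1B, a subunit of RNA polymerase I, by 0.63 ± 0.12. In the late window 10 rose and 1 fell (median 0.10), with POLR1B at 0.41 ± 0.12 and DDX21 at 0.37 ± 0.08, while the probe of UTP20 (0.51 ± 0.10) was detected on only 15 arrays. On the 8 arrays of 0 and 24 h alone 1 was higher and 5 were lower, with a median of -0.10. Of 19 measured translation factors and other mRNAs of the TOP class, EIF4B rose and EIF4A2 fell in the middle window (0.20 ± 0.06 and -0.27 ± 0.07), and EIF4B rose and EIF2S3 fell in the late window (0.19 ± 0.05 and -0.18 ± 0.05). Of 76 mitochondrial ribosomal protein genes 5 rose and 1 fell in the middle window, and 3 rose and 3 fell in the late window, 7.89% each time and thus below the share of all genes, with MRPS33 at 0.27 ± 0.08, MRPL23 at -0.26 ± 0.08 and MRPS15 at -0.25 ± 0.06.
Of 16 measured regulators 4 fell in the middle window, among them DDIT4, an inhibitor of mTORC1 (-0.76 ± 0.14), and MXI1, an antagonist of MYC (-0.97 ± 0.12). The probe of MXI1 was detected on only 12 of the 24 arrays, so the size of its change is uncertain. In the late window DDIT4 rose (0.80 ± 0.13) and MXI1, EIF4EBP1 and MYC fell (-0.42 ± 0.12, -0.39 ± 0.08 and -0.30 ± 0.08). Between the co-cultures, 1 gene passed in each list, EIF4B lower beside HPAEC (-0.25 ± 0.05), and BOP1 (0.29 ± 0.05), MRPL36 (0.24 ± 0.05) and EIF4EBP1 (0.37 ± 0.07) higher. The one measured ribosomal protein gene that is named otherwise did not pass in any of these contrasts, and protein levels and translation were not measured.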

How the data were processed

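RNA of 24 H838 lysates was measured on Illumina HT-12 bead arrays. Per the file headers, the deposited non-normalized table holds a mean bead intensity per probe and array with a detection p-value, and the authors' series matrix holds a normalised intensity, used as an alternative. What software the authors used is not given in the sources used here.

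From the intensities, limma (3.58.1, R 4.3.3) corrected background by a normal-exponential fit with detection p-values (offset 16), quantile normalised the arrays and took log2. Quantile normalisation gives every array the same distribution, so the raw share of the members is printed too. After the detection filter (20054 probes) the brightest probe stood for a gene. All tests used limma with Benjamini-Hochberg adjustment over 11494 genes, both sides, at 0.05. Models held time, co-culture and chip (12 residual degrees of freedom), co-culture by window plus chip (15), or 0 and 24 h only (3). Arrays have no read depth, and their number limits precision.

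The members, lists and tests were chosen with earlier results of these data known. Named genes were members past a threshold, the smallest p-values of the differences, the extremes of spread and brightness, and a fixed set of paralog pairs and MDM2-binding proteins. A mitochondrial antisense RNA that the list's pattern took in was left out. Y-linked members were counted but not printed. Of 47286 probes 30080 had 1 symbol, 8 several and 17198 none. On simulated data of 11494 genes the late window recovered 30% of changes of 0.3 and 86% of 0.6 (log2). Replicate numbers did not pair the arrays (correlations of deviations from -0.046 to 0.133). Alternatives were the scaling, background, series matrix, detection filter, probe choice, chip, replicate block and leaving out each array.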

Additional observations from a re-analysis of the deposited data

Results flagged for a closer look

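Dixon's test at the 95% level was applied to the 4 arrays of 0 h and to the 4 of 24 h for the members named, 64 tests in all, of which chance flags about 1 in 20. It marked 2 arrays, both at 24 h beside HPAEC. RPL36AL was 13.56 on the second HPAEC array of 24 h, where the other 3 arrays were 13.75, 13.75 and 13.78. RPL7, a large subunit protein, was 11.19 on the first HPAEC array of 24 h, where the others were 11.73, 11.74 and 11.76. Neither gene was called in any comparison.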

How the results depend on the processing

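No named call changed direction under any alternative. With arrays scaled to a common median the member medians were 0.0589 for the co-culture effect, -0.0534 for the middle difference between co-cultures and 0.0613 for 24 h on the duplicated arrays. Under that scaling RPL26L1 in the middle and RPL26 in the late window no longer passed (adjusted p = 0.118 and 0.125 in limma), and with the series matrix neither did RPL26L1 (0.0552) nor RPS26 in the late window (0.054). The series matrix gave a middle difference of 0.00612. Counts of members called that moved by over 1.5 times were, for the middle window (2), 4 without background correction and 0 within either chip; for the late window (5), 9 with every probe on its own, 9 with the mean of a gene's probes and 0 within either chip; for the F test (4), 9 without background correction, 7 with the series matrix, 8 with detection on all arrays, 2 with no filter and 8 with every probe; for 24 h (4), 7 with the series matrix, 2 with no filter and 10 with every probe; for the co-culture effect (0), 1 with the mean of probes, 9 if chip was dropped and 11 if it was a random block. Within a chip few arrays remain, and the late change of RPL36A was -0.50 and -0.48 there. A replicate block left 1 of the 4 calls at 24 h, but the numbers do not pair the arrays. Leaving out 1 array at a time gave counts of 0 to 0 for the co-culture effect, the early window and the 3 differences, 1 to 3 for the middle window, 2 to 6 for the late window, 2 to 5 for the F test and 0 to 1 for 24 h; the late count was 2 without either HPAEC array of 0 h, the HPAEC array of 10 h or the first H838 array of 0 h. The cause of these shifts was not tested. Dim probes limit the rest: RPL37 and RPL28 lie near 7.51 and 8.54.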
